A study of Mus musculus with 10 samples.

Results

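Signalling from Toll-like receptors was examined through 10 genes that act just below the receptors: the adaptor genes Myd88, Tirap and Ticam1, the kinase family genes Irak1, Irak2, Irak3 and Irak4, the ubiquitin ligase genes Traf3 and Traf6, and the inhibitor gene Tollip. They were chosen by name, all 10 were found among 56748 gene identifiers, and all 10 passed the filter on low counts that left 15942 genes to test. RNA-seq had been done on beta cells sorted from pancreatic islets of male mice of the NOD strain, an inbred model of autoimmune diabetes. In the LPS group (n = 5 libraries, numbered 6 to 10) the islets were cultured for 48 hours with 50 ng/ml of lipopolysaccharide, the bacterial cell wall component that Toll-like receptor 4 (TLR4) senses. In the untreated group (n = 5, numbered 1 to 5) no agent is named. The mice of both groups were 6 to 8 weeks old and are labelled NOD with no further allele. Whole islets, with all their cell types, met the LPS, and the beta cells were separated only afterwards. The samples are described as independent, with no animal named for any of them, so the p-values measure the spread between these libraries.

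Toll-like receptors signal by gathering adaptor proteins through shared TIR domains. MyD88, brought to TLR4 by the bridging adaptor TIRAP, recruits the kinase IRAK4, which activates IRAK1 and IRAK2, and these engage the ubiquitin ligase TRAF6, leading to the kinase TAK1 and to NF-kB. TLR4 also signals through TRIF, the product of Ticam1, which uses TRAF3 to reach the kinase TBK1 and the interferon regulatory factor IRF3. IRAK-M, the product of Irak3, and Tollip restrain the MyD88 route. In the pancreas this machinery is best known from resident macrophages, and beta cells carry it as well.

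Total counts assigned to genes ran from 18465188 to 27379892 in LPS libraries and from 23269906 to 26137820 in untreated ones. Levels are given as CPM, counts relative to the library total after scaling between libraries. All 10 beta cell markers examined were detected in every library, and their summed level ran from 101964 to 134049 CPM in LPS and from 118261 to 137066 CPM in untreated libraries. Among leukocyte and macrophage markers, Ptprc had 0 counts in all 10 libraries and Adgre1 had 0 counts over the LPS and 1 over the untreated libraries. Csf1r was under the filter with 2 to 21 counts per library, and 2 of 12 macrophage markers passed the filter, Cd68 and C1qa. The summed macrophage list, which those 2 genes make up almost wholly, ran from 36.4 to 46.9 CPM in LPS and from 29.2 to 42.1 CPM in untreated libraries. Endothelial markers summed to 9.81 to 13.9 CPM in LPS and 11.8 to 31.8 CPM in untreated libraries, and mesenchymal markers to 4.25 to 28.3 and 6.00 to 94.6 CPM.

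The stretches upstream of the transcription start are shown for the 4 genes on which the comparisons turn, Myd88 and Ticam1 as the adaptors of the MyD88 and TRIF routes and Traf3 and Traf6 as the ligases of those routes. They are the 250 bases before the start in RefSeq's promoter table (build GRCm38.p6; the counts were made on GRCm39), read in the direction of the gene, at chr9:119340019-119340268 (minus strand) for Myd88, chr17:56276768-56277017 (minus) for Ticam1, chr12:111166120-111166369 (plus) for Traf3 and chr2:101678170-101678419 (plus) for Traf6. Capitals mark matches to GAAANNGAA, the core of the element that interferon regulatory factors bind, or to GGNNNTTCC, a form of the NF-kB site. Both motifs were chosen after the values were seen and searched on both strands.
Myd88: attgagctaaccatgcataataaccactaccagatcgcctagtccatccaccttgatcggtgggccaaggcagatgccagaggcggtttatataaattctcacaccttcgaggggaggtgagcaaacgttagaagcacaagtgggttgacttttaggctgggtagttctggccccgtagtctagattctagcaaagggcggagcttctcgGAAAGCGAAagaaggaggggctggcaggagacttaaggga
Ticam1: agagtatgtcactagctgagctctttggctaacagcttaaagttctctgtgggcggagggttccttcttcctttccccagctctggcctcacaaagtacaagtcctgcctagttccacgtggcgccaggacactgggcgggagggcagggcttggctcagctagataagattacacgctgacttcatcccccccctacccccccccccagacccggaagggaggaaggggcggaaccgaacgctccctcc
Traf3: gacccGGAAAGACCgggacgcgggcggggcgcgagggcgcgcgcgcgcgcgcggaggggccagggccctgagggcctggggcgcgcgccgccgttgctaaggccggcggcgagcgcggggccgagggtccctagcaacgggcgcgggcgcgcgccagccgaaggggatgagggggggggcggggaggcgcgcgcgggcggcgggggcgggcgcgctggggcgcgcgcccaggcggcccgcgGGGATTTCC
Traf6: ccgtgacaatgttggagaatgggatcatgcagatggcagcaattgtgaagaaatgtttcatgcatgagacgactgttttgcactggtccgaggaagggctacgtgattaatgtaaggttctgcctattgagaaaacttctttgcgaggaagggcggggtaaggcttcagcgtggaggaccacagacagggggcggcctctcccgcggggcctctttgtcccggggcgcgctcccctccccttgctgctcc
The match in the Myd88 promoter, GAAAGCGAA, is to the interferon motif and ends 32 bases before the start. This motif was found in 7.13% of the 32851 promoters of the table and, among the 13 promoters listed for the 10 genes, in 2, those being the one of Myd88 and 1 of Irak3. The NF-kB form was found in 15.7% of all promoters and in 2 of the 13, that of Traf3 and 1 of Tirap. In Traf3 it occurs at 2 places, and GGGATTTCC lies directly before the start. The letters of neither motif are in the windows of Ticam1 and Traf6. These matches are descriptions of letters and not measured sites, and the reference strain is not NOD.

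Read per kilobase of exon, the 10 genes spanned from under 1 to about 70 RPKM (CPM per kilobase; exon lengths of GENCODE M21, another release than the one counted with). Irak1, the kinase that carries the signal from the receptor complex to TRAF6, was the most abundant at 69.9 ± 2.27 RPKM in LPS and 69.4 ± 1.13 in untreated libraries (SD, n = 5 each). Tollip, a ubiquitin-binding protein that restrains IRAK1, followed at 45.1 ± 7.40 and 43.9 ± 5.69 RPKM. Traf3, Ticam1, Myd88 and Traf6 formed a middle band between 7.28 and 13.2 RPKM. In it Traf3 overlapped Ticam1 and Myd88 overlapped Traf6 in both groups, so the order inside these pairs is not resolved. Irak2 stood at 2.55 ± 0.271 and 2.62 ± 0.452 RPKM and Irak4 at 1.75 ± 0.119 and 1.61 ± 0.160 RPKM. The kinase IRAK4, which the MyD88 route starts with, had a lower transcript level than its substrate IRAK1 in all 10 libraries. Lowest were Irak3, at 0.957 ± 0.241 and 0.737 ± 0.338 RPKM, and Tirap, at 0.850 ± 0.0621 and 0.754 ± 0.0704 RPKM, whose ranges overlapped. Neighbours in the order other than those named did not overlap within a group. The plot of RPKM levels shows the 3 tiers.

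**Figure D1:**
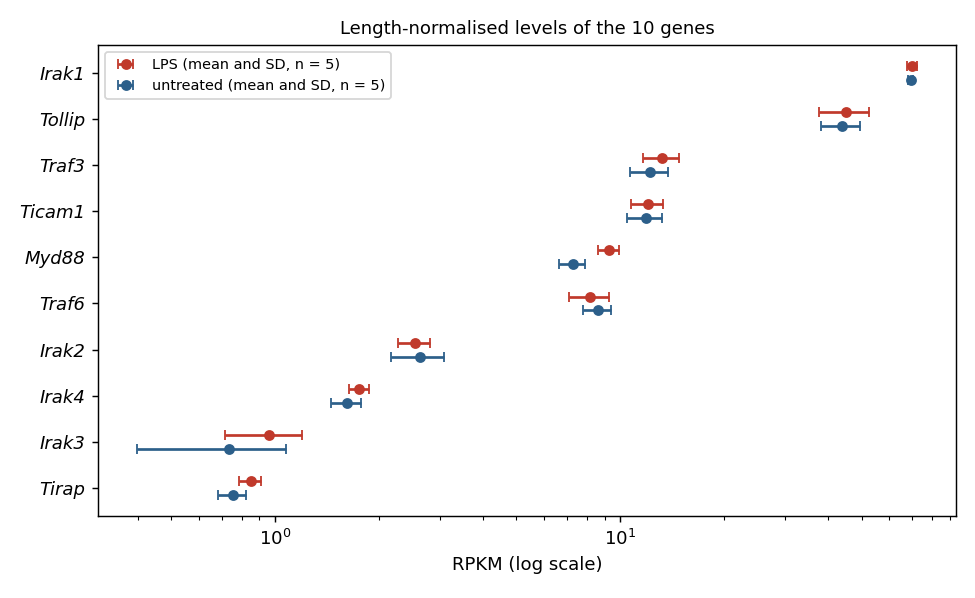
Length-normalised level (RPKM, log axis) of each of the 10 genes in LPS (red) and untreated (blue) libraries; points are means and bars SD over n = 5 libraries. Irak1 and Tollip lie near 70 and 45 RPKM in LPS, a middle group between 7.28 and 13.2, and Irak2, Irak4, Irak3 and Tirap at or under 2.62.

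LPS and untreated libraries were compared to ask which of these genes differed after the islets had met LPS. Myd88, the central adaptor, rose 1.27-fold, and none of the other 9 genes passed the test. The call rule was an adjusted p under 0.05 in edgeR's quasi-likelihood test with Benjamini-Hochberg adjustment over all genes, which 3.77% of tested genes met (2.84% higher and 0.928% lower in LPS), so a single call among 10 genes says nothing particular about them as a group. Fold changes are log2 of LPS over untreated. Of the 10, 8 had a fold change above 0 and 2 below (Irak1 also lay below 0 with upper-quartile scaling, and Tollip with sample quality weights), with a median of 0.08, against a median of -0.01 over all genes tested. Of all genes tested, 47.9% had a fold change above 0. With single libraries left out, the sign also turned for Ticam1, Irak1, Irak2 and Tollip. Among marker genes read from the same fit, 3 of 10 beta cell markers (Slc2a2, Slc30a8 and Ucn3) and 1 of 6 tested endothelial markers (Kdr) were called lower in LPS. Called higher were 1 of 2 tested macrophage markers (Cd68) and 2 of 5 tested duct cell markers (Spp1 and Muc1). All 7 genes were named after their values were seen. The other tested macrophage marker, C1qa, was not called, with a log2 fold change of -0.35 (edgeR adjusted p = 0.213). Called or not, all 6 tested endothelial (median log2 fold change -1.48) and all 6 tested mesenchymal markers (-0.92) lay below 0. So did all 5 alpha cell (-0.33) and all 3 delta cell markers (-0.18). Below 0 were also 8 of 10 beta cell and 3 of 5 tested acinar cell markers, while all 5 tested duct cell markers lay above 0. The part of these shifts in the values of the 10 genes was not tested. In bulk samples such as these, a change in the number of cells that carry a transcript and a change in RNA per cell cannot be told apart.

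Myd88 had 23.5, 23.7, 22.4, 22.9 and 26.6 CPM in LPS 6 to 10, against 17.8, 21.2, 18.5, 19.2 and 17.0 CPM in untreated 1 to 5. Every LPS library lay above every untreated one, a separation that 5.71% of tested genes showed in either direction, with LPS 10 the highest and untreated 2 closest to the LPS range. The log2 fold change was 0.35 ± 0.08 (SE; edgeR adjusted p = 0.0285), with a 95% interval of 0.17 to 0.52. This is a small rise among those called: 374 of the 453 genes called higher had a larger fold change, and their median was 0.73. The call was held by all 7 other scalings, filters and tools tried with all libraries (adjusted p = 0.00309 in DESeq2 to 0.0458 with no filter on low counts). It was lost in 8 of the 10 fits that left out a library, so that 0 of the 10 genes were called without untreated 1, 3, 4 or 5 or LPS 6, 7, 9 or 10, with adjusted p up to 0.0854 and a fold change of 0.30 to 0.39. Of the exon length of Myd88, 11.3% is shared with Acaa1a, a gene of peroxisomal fatty acid breakdown on the opposite strand. The use of strand in counting is not given in the sources used here, and Acaa1a itself averaged 81.1 CPM in LPS and 78.8 CPM in untreated libraries (log2 fold change 0.04 ± 0.09, adjusted p = 0.893).

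**Figure D2:**
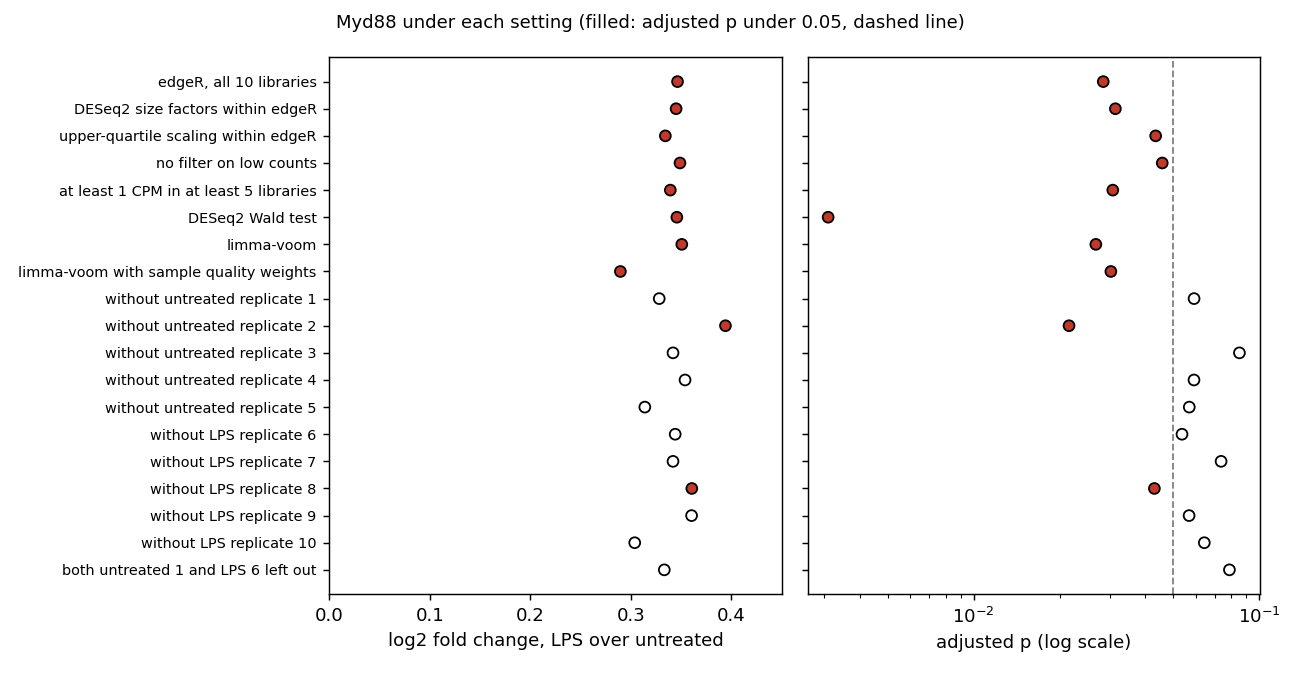
Log2 fold change (left) and adjusted p (right, log axis) of Myd88 under each setting; filled points have an adjusted p under 0.05, the dashed line. The fold change lies between 0.29 and 0.39 in every setting, while 8 of the 10 fits without a library, and the fit without both untreated 1 and LPS 6, lie right of the line.

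The other 2 adaptors did not pass. Tirap, which docks MyD88 at TLR4, had 4.15, 4.12, 4.28, 4.62 and 3.77 CPM in LPS 6 to 10, against 3.19, 3.85, 3.63, 4.13 and 3.78 CPM in untreated 1 to 5. The groups overlapped, with untreated 1 the lowest library and LPS 9 the highest. Its log2 fold change was 0.17 ± 0.13 (SE; edgeR adjusted p = 0.600) and its 95% interval, -0.11 to 0.45, includes the size measured for Myd88. Exons of Tirap overlap Gm39318 on the other strand over 9.05% of their length. They also share 39 bases (0.79%) with Srpr on that strand, an abundant gene at 565 CPM in LPS and 532 CPM in untreated libraries. Srpr was not called (log2 fold change 0.09, edgeR adjusted p = 0.603), and its part in the Tirap counts was not tested. Ticam1, the gene of TRIF, had 41.9, 36.1, 35.7, 34.7 and 31.5 CPM in LPS 6 to 10, against 41.8, 35.9, 35.2, 33.3 and 30.7 CPM in untreated 1 to 5. The 2 groups covered almost the same range, with LPS 6 and untreated 1 the highest library in each. For Ticam1 the log2 fold change was 0.02 ± 0.09 (adjusted p = 0.946), with an interval of -0.18 to 0.22, and its sign turned without untreated 5 or LPS 6.

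Because the level of several of these genes differed between libraries of 1 group, the adaptors were also set against each other within a library, where scaling cancels. The ratio of Myd88 to Ticam1 counts was 0.561, 0.656, 0.628, 0.660 and 0.845 in LPS 6 to 10, against 0.426, 0.590, 0.527, 0.575 and 0.555 in untreated 1 to 5. The ratio was higher on average in LPS, although LPS 6 lay within the untreated range. On the log2 scale it averaged -0.59 ± 0.22 in LPS and -0.91 ± 0.19 in untreated libraries (SD, n = 5 each), a difference of 0.32 (two-sided exact permutation p = 0.0238; 0.0476 adjusted over the 4 ratios compared). With a library left out the difference was 0.24 to 0.38, and by the adjusted p it passed only without untreated 2, untreated 4 or LPS 6. It did not pass without untreated 1, 3 or 5 or LPS 7, 8, 9 or 10 (exact permutation p of 0.0397 to 0.0556, adjusted 0.0794 to 0.111).

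None of the 4 kinase family genes passed. Irak1 had 330, 332, 344, 328 and 314 CPM in LPS 6 to 10, against 322, 331, 333, 329 and 322 CPM in untreated 1 to 5. All 10 libraries lay within a narrow band, and the LPS range contained the untreated one. For Irak1 the fit gave 0.01 ± 0.05 on the log2 scale (SE; edgeR adjusted p = 0.959), and the 95% interval of -0.10 to 0.12 was the narrowest of the 10 genes. The spread of Irak1 between libraries of a group, 0.04 as an SD of log2 CPM, was smaller than that of nearly every other gene: only 0.207% of tested genes had a smaller one, against a median of 0.19. That comparison was not matched for level, and Irak1 had many counts, 6110 to 9170 per library. The part of its level in this small spread was not tested. Irak4, the kinase that phosphorylates IRAK1, had 8.79, 9.48, 8.36, 8.06 and 9.28 CPM in LPS 6 to 10, against 7.31, 8.07, 9.42, 7.66 and 8.05 CPM in untreated 1 to 5. The groups overlapped, with untreated 2 and 3 above the lowest LPS library, and the log2 fold change was 0.12 ± 0.10 (adjusted p = 0.654; interval -0.10 to 0.34). Exons of Twf1, on the other strand, cover 7.87% of the exon length of Irak4 (log2 fold change of Twf1 0.04, adjusted p = 0.871).

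Irak2, the paralogue of Irak1 known for sustaining the response, had 13.2, 10.5, 10.6, 10.3 and 11.6 CPM in LPS 6 to 10, against 14.7, 12.2, 10.6, 9.51 and 10.8 CPM in untreated 1 to 5. The highest library of each group was the same pair as for Ticam1, LPS 6 and untreated 1. The log2 fold change of Irak2 was -0.04 ± 0.12 (SE; edgeR adjusted p = 0.922; 95% interval -0.31 to 0.22), and it turned to 0.06 without untreated 1. The ratio of Irak2 to Irak1 counts had a median of 0.0316 in LPS and 0.0337 in untreated libraries, a log2 difference of -0.04 between the means (exact permutation p = 0.754; 0.754 adjusted).

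Irak3, which encodes the inhibitory IRAK-M, had 4.30, 3.98, 3.85, 3.44 and 2.03 CPM in LPS 6 to 10, against 1.75, 2.88, 3.13, 4.48 and 1.31 CPM in untreated 1 to 5. It was the most scattered of the 10 genes: untreated 4 was the highest of all libraries and untreated 5 the lowest, and 90.4% of tested genes had a smaller spread within groups. The log2 fold change of Irak3 was 0.38 ± 0.30 (SE; edgeR adjusted p = 0.627), and its 95% interval ran from -0.27 to 1.03. The value moved to 0.20 without untreated 5 and to 0.63 without untreated 4, and was not called in either fit. Counts of Irak3 were few, 32 to 110 per library. IRAK-M is best known from macrophages. Of the macrophage markers, Ptprc and Adgre1 were at or near 0 here and Csf1r had 2 to 21 counts per library. Cd68 averaged 26.8 CPM in LPS and 16.8 CPM in untreated libraries, and C1qa 14.7 and 18.7 CPM. The part of macrophages in the Irak3 counts was not tested. Untreated 4, the library with the most Irak3, also had the highest mesenchymal marker sum (94.6 CPM), and the part of this in its value was not tested. A share of 5.22% of the exon length of Irak3 lies under Tmbim4 on the opposite strand, which averaged 64.5 CPM in LPS and 51.6 CPM in untreated libraries and was itself called higher (0.32 ± 0.07, adjusted p = 0.0135). Its part in the Irak3 counts was not tested. The ratio of Irak3 to Irak4 counts ran from 0.219 to 0.489 in LPS and from 0.163 to 0.584 in untreated libraries (log2 difference 0.34; exact permutation p = 0.397, 0.529 adjusted). This difference was 0.11 without untreated 5, 0.57 without untreated 4 and 0.55 without LPS 10, and it did not pass with any library left out.

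**Figure D3:**
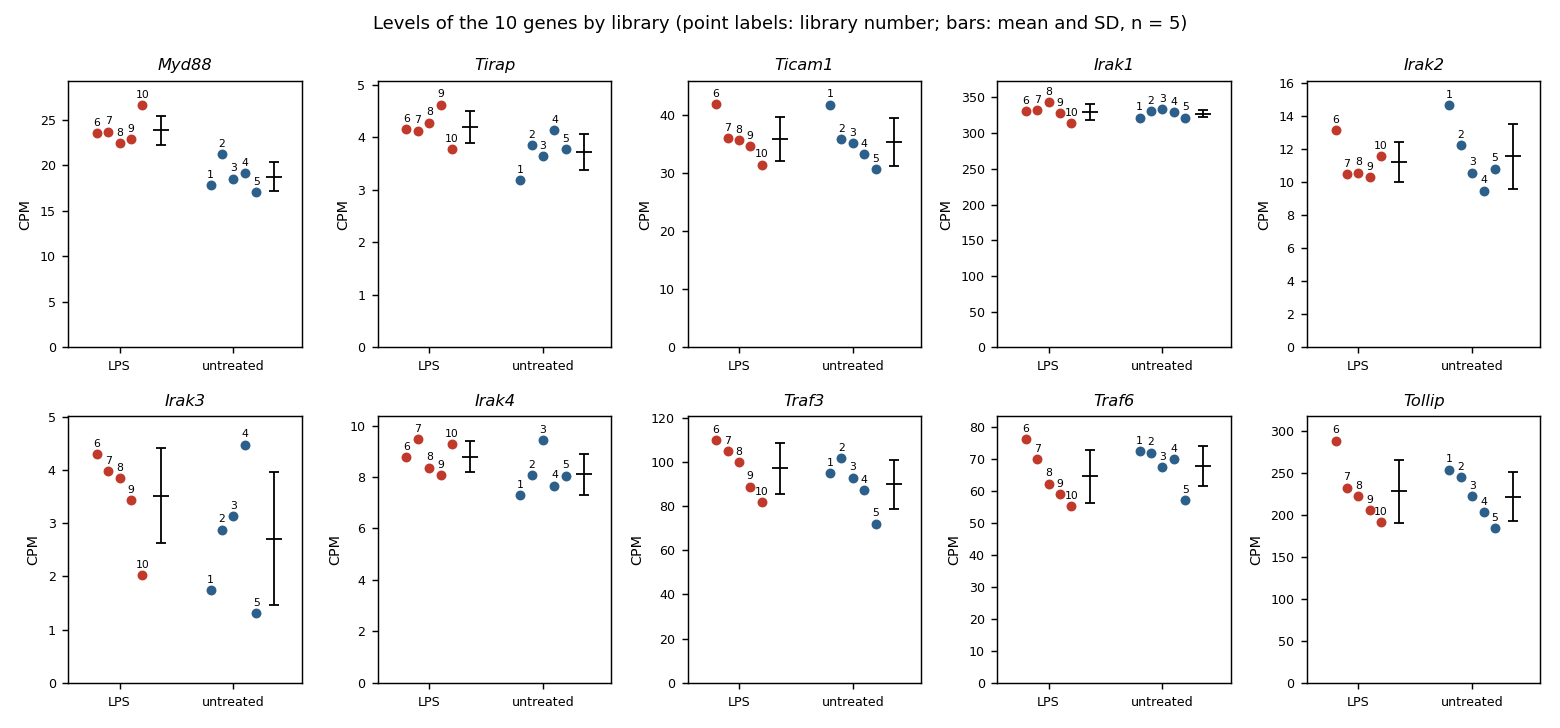
CPM of each of the 10 genes in every library (red LPS, left; blue untreated, right; point labels give the library number; bars beside the points are mean and SD, n = 5; axes start at 0). In the panel of Myd88 alone the groups are apart, with the LPS points between 22.4 and 26.6 and the untreated ones between 17.0 and 21.2 CPM.

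Neither ligase gene passed alone. The ratio of their counts passed with all libraries, but not in every fit that left out a library. Traf3, whose product links TRIF to TBK1 and also curbs non-canonical NF-kB, had 110, 105, 99.9, 88.9 and 81.8 CPM in LPS 6 to 10, against 95.1, 102, 92.9, 87.1 and 72.1 CPM in untreated 1 to 5. Traf6, the ligase of the MyD88 route, had 76.0, 69.8, 62.2, 58.9 and 55.3 CPM in LPS 6 to 10, against 72.3, 71.9, 67.4, 69.9 and 57.0 CPM in untreated 1 to 5. For both genes the groups overlapped widely, and LPS 10 and untreated 5 were the lowest library in each group. The log2 fold change was 0.11 ± 0.10 for Traf3 (SE; edgeR adjusted p = 0.674; 95% interval -0.10 to 0.33) and -0.07 ± 0.09 for Traf6 (adjusted p = 0.794; -0.27 to 0.13).

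The ratio of Traf6 to Traf3 counts was 0.692, 0.666, 0.622, 0.663 and 0.675 in LPS 6 to 10, against 0.760, 0.706, 0.726, 0.803 and 0.791 in untreated 1 to 5. Every LPS library lay below every untreated one, with untreated 2 and LPS 6 nearest to each other. How often the ratios of other gene pairs separate in this way was not computed, so no background share stands beside this separation. On the log2 scale the ratio averaged -0.59 ± 0.06 in LPS and -0.40 ± 0.08 in untreated libraries (SD, n = 5 each), a difference of -0.19 (two-sided exact permutation p = 0.00794, the smallest that 252 arrangements allow; 0.0317 adjusted over 4 ratios). The difference stayed between -0.21 and -0.17 with any 1 library left out (exact permutation p up to 0.0159). By the adjusted p it did not pass without LPS 7, 8, 9 or 10 (0.0635 in each). The exact permutation p was 0.0159 in each of these fits, and also without LPS 6, where the adjusted p was 0.0317. The adjusted p depends on the p of the other ratios as well, so these fits do not show that the difference rests on particular LPS libraries. A ratio within a library shows unequal change and not which of the 2 genes moved. The plot of ratios gives the values of all 4 pairs.

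**Figure D4:**
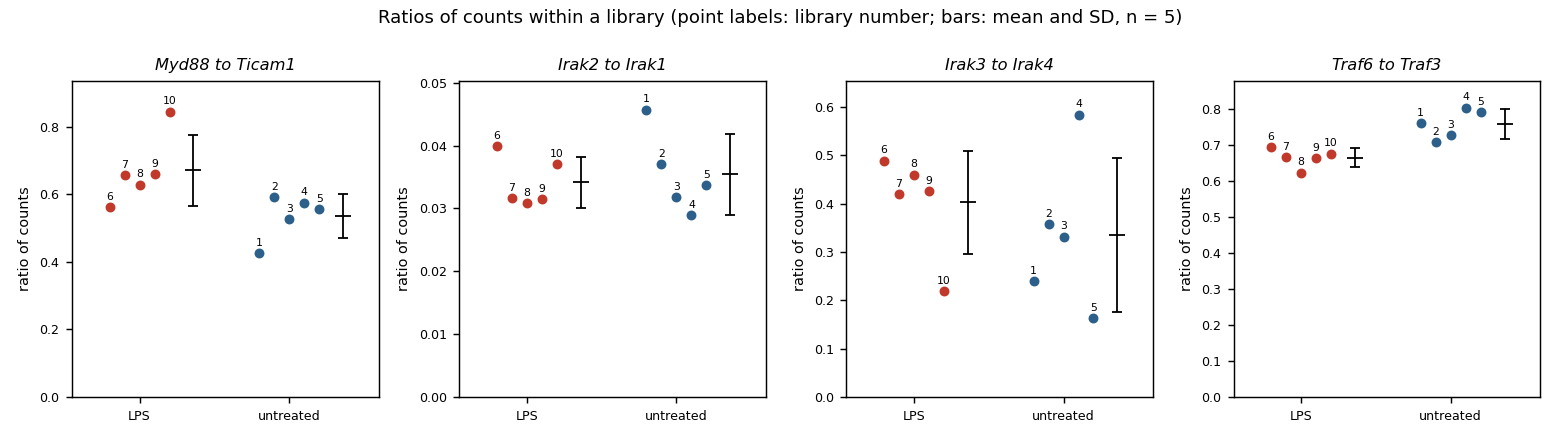
Ratio of the counts of 2 genes within each library for 4 pairs (red LPS, left; blue untreated, right; point labels give the library number; bars are mean and SD of the ratios, n = 5). Traf6 to Traf3 is the pair whose groups are apart, 0.622 to 0.692 in LPS and 0.706 to 0.803 in untreated libraries.

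Tollip had 289, 233, 223, 206 and 191 CPM in LPS 6 to 10, against 254, 245, 223, 204 and 185 CPM in untreated 1 to 5. The spread within each group exceeded the difference between them, and the log2 fold change was 0.04 ± 0.11 (SE; edgeR adjusted p = 0.924; 95% interval -0.21 to 0.29). Its sign turned without untreated 5, without LPS 6 and with limma-voom's sample quality weights. LPS 6 was the highest LPS library for Tollip, Ticam1, Traf3, Traf6, Irak2 and Irak3, and LPS 10 the lowest for these genes other than Irak2. Untreated 5 was the lowest untreated library for Tollip, Ticam1, Traf3, Traf6, Irak3 and Myd88. LPS 6 also had the fewest reads outside genes or without a unique gene, 15.4% of the reads in its table against 17.9 to 19.5% in the other LPS libraries, and untreated 1 had 17.0% against 19.0 to 20.2% in the other untreated ones. The part of this in the scatter was not tested. With those 2 libraries left out, a setting chosen after seeing the data, Myd88 had a fold change of 0.33 (edgeR adjusted p = 0.0788), so that 0 of the 10 genes were called, and the Traf6 to Traf3 difference was -0.20 (exact permutation p = 0.0286, the smallest that 4 libraries against 4 allow, and 0.0571 adjusted).

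Around the 10 genes, 67 other genes of the pathway were read from the same fit: 57 passed the filter, 7 were called higher, none was called lower, and the median log2 fold change was 0.05. Over all genes tested, 2.84% were called higher and 0.928% lower, and the median was -0.01. The lists were not tested as sets. The 7 calls are given list by list. Tifa, whose product binds TRAF6 and drives its oligomerisation, had 134, 141, 115, 147 and 190 CPM in LPS 6 to 10, against 60.3, 67.2, 55.4, 58.6 and 60.1 CPM in untreated 1 to 5. All LPS libraries were well above all untreated ones (log2 fold change 1.27 ± 0.11 SE; edgeR adjusted p = 2.89e-05), and Tifa was the 1 called gene among 4 tested of 5 further adaptors. Among 4 tested of 5 further TRAF genes none was called, with the 2 most abundant, Traf7 and Traf4, at 0.05 and 0.20 (adjusted p = 0.820 and 0.387). By edgeR's unadjusted p, 2 of these 4 were under 0.05, as were 15.3% of all genes tested, and no other tool or setting tried called any of them.

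Of 10 ubiquitin ligases and conjugating enzymes, all tested, Birc3 was called. Birc3, the cIAP2 ligase gene and a known NF-kB target, averaged 69.1 ± 24.7 CPM in LPS and 20.9 ± 5.46 CPM in untreated libraries (SD, n = 5 each; log2 fold change 1.73 ± 0.22 SE, edgeR adjusted p = 4.48e-04). Of 8 genes of the TAK1 and IKK kinases, Map3k8 was called, which encodes the MAP kinase kinase kinase TPL2, at 10.0 ± 4.13 CPM in LPS and 4.28 ± 1.02 CPM in untreated libraries (1.22 ± 0.25, adjusted p = 0.0128). The list had a median of -0.02, against -0.01 over all genes tested. None of 6 tested genes of the TRIF route beyond Traf3 was called, with Tbk1 at 0.11 (adjusted p = 0.493) and Ripk1 at 0.05 (0.878), and none of 7 MAP kinase genes. Mapk14, the gene of p38 alpha, came closest at 174 ± 9.87 CPM in LPS and 150 ± 7.30 CPM in untreated libraries, with groups that did not overlap (0.22 ± 0.06, adjusted p = 0.0663), while Mapk9 had -0.09 (0.569). By edgeR's unadjusted p, 1 of the 6 and 2 of the 7 were under 0.05. Mapk14 was called by DESeq2 and by limma-voom with sample quality weights. Ikbke, of the TRIF route, was called with those weights alone.

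Of 9 brakes of the pathway 8 were tested and 2 rose: Tnfaip3, the gene of the ubiquitin editor A20 that acts on TRAF6, and its partner Tnip1. Tnfaip3 averaged 161 ± 49.0 CPM in LPS and 60.5 ± 20.4 CPM in untreated libraries (SD, n = 5 each; log2 fold change 1.41 ± 0.22 SE, edgeR adjusted p = 0.00193), and Tnip1 94.5 ± 14.3 and 59.3 ± 5.15 CPM (0.67 ± 0.10, adjusted p = 0.00124). Tnfaip3 was highest in LPS 6 (249 CPM) among LPS and in untreated 1 (94.9 CPM) among untreated libraries, as were Birc3, Map3k8, Tnip1 and Tlr2. Of the other called genes, Tifa was highest in neither of these libraries and Cd14 in untreated 1 alone. Tnip3, named after its values were seen, was under the filter with 64 counts over the LPS and 4 over the untreated libraries. It was called higher with no filter (edgeR adjusted p = 0.00295) and in all 6 of the 10 fits without a library in which it passed the filter. Of 17 receptor genes 10 were tested. Tlr4, whose product senses LPS, and the adaptor gene Ticam2 are named here after their values were seen. Tlr4 averaged 0.734 ± 0.238 CPM in LPS and 0.685 ± 0.417 CPM in untreated libraries, with 6 to 32 counts per library. Its log2 fold change was 0.09 ± 0.41 (SE; edgeR adjusted p = 0.950). Ticam2 was under the filter, with 2 counts over the LPS and 7 over the untreated libraries. Tlr2, which signals through MyD88 and TIRAP, rose (83.1 ± 15.6 CPM in LPS and 41.1 ± 5.61 CPM in untreated libraries; 1.01 ± 0.12, adjusted p = 2.90e-04), as did the co-receptor gene Cd14 (0.93 ± 0.22, adjusted p = 0.0313), whose call was lost in 6 of the 10 fits without a library (adjusted p up to 0.0886). The other 6 calls named in these lists were kept in all 10 such fits.

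**Figure D5:**
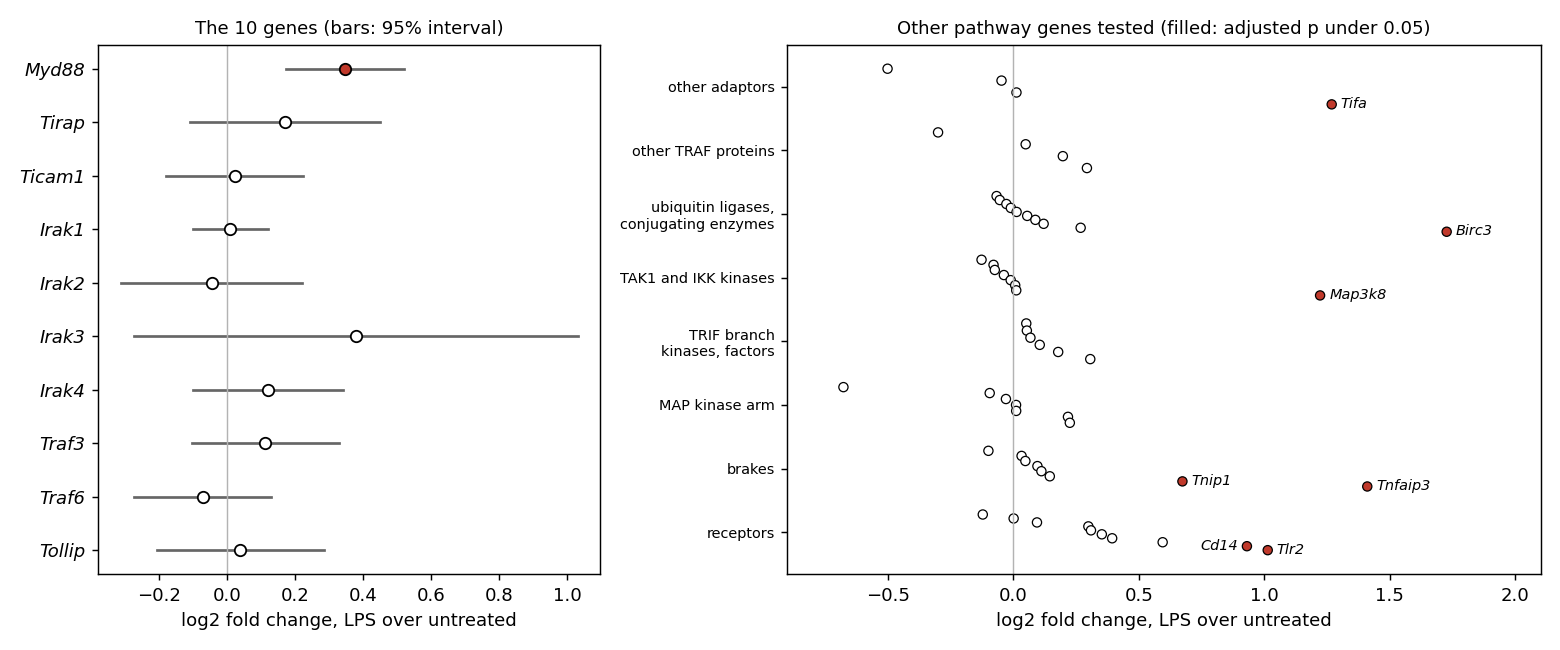
Log2 fold change of LPS over untreated for the 10 genes with 95% intervals (left) and for the 57 other pathway genes tested, by list (right); filled points have an adjusted p under 0.05. Myd88 is filled on the left at 0.35, and the 7 filled points on the right lie between 0.67 and 1.73.

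The genes whose library profile lay nearest to that of Myd88 were Dap, Pdia6 and Clptm1l, with a root-mean-square distance of 0.07, 0.08 and 0.08 between log2 CPM values centred on each gene's mean over the 10 libraries. For scale, the profile of Myd88 itself varied by 0.20 about its mean. All 3 were called higher, at 0.34, 0.30 and 0.29 on the log2 scale (edgeR quasi-likelihood test, adjusted p = 0.00583, 0.0194 and 0.0133). The distance includes the step between the groups, so choosing genes near to Myd88 largely fixed the direction and size of these values.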

How the data were processed

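RNA-seq libraries of sorted beta cells, 5 from islets kept with LPS and 5 untreated, were grouped by their titles. The deposited values are raw counts of reads per Ensembl gene identifier, with 1 file per library. Tools named per the submitters' processing notes are HTSeq, STAR, Trimmomatic, FastQC, SAMtools and DESeq2, with GRCm39 as build. Their versions, the annotation release and whether strand was used in counting are not given. Closing lines that name no gene (15.4 to 20.2% of the reads in a table) entered neither library sizes nor tests. A table of gene names gave symbols to 52073 of 56748 identifiers.

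Genes were filtered with edgeR 4.0.16 in R 4.3.3 (filterByExpr, minimum count 10, minimum total 15), scaled by TMM and tested by quasi-likelihood without covariates, with Benjamini-Hochberg adjustment over 15942 genes. SEs are the log2 fold change divided by the root of its F statistic. Ratios of counts were tested by exact permutation of the library labels, two-sided. Profiles used log2 CPM with a prior count of 2. Named were the 10 genes, up to 3 called genes of each other list (smallest adjusted p) or else its 2 most abundant tested ones, and the 3 genes nearest to Myd88; exceptions are marked. The members and lists were chosen with earlier results of these data known. Alternatives were other scalings and filters, DESeq2 1.42.0, limma 3.58.1 (voom) and leaving out libraries. The edgeR step was tested on simulated data. Figures used Python 3.11.15 and matplotlib 3.10.9.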

Additional observations from a re-analysis of the deposited data

Results flagged for a closer look

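Among 28 groups of 5 libraries examined for a library far from the others, 1 was marked, and chance marks about 1 in 20. The ratio of Irak3 to Irak4 counts was 0.219 in LPS 10, while the other 4 LPS libraries lay between 0.420 and 0.489. The gap was 0.744 of the whole range of the group (Dixon's test). LPS 10 had 49 counts of Irak3 and 224 of Irak4.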

How the results depend on the processing

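No paired analysis was made, since the labels name no pairing and the groups share no replicate numbers. Ticam1 and Tollip fell in the order of the library numbers within both groups. The part of such a shared order in the values was not tested. Over all genes, 601 were called (453 higher, 148 lower), against 976 with DESeq2 (322 lower) and 994 with limma-voom with sample quality weights (693 higher, 301 lower). With single libraries left out it was 401 to 624 (324 to 458 higher, 75 to 166 lower). Of the 10 genes, 0 or 1 was called with a library left out and 0 with both untreated 1 and LPS 6 left out, as given above. Of the other pathway genes, 6 to 9 were called under all alternatives tried. The log2 ratio difference of Myd88 to Ticam1 ran from 0.24 to 0.38, that of Irak2 to Irak1 from -0.11 to 0.054, that of Irak3 to Irak4 from 0.11 to 0.57 and that of Traf6 to Traf3 from -0.21 to -0.17 with single libraries left out. By the p adjusted over the 4 ratios, Myd88 to Ticam1 passed in 3 and Traf6 to Traf3 in 6 of those 10 settings, and neither passed without both untreated 1 and LPS 6 (0.30 and -0.20, adjusted p = 0.0571 for each by exact permutation). In that last setting both had an exact permutation p of 0.0286, the smallest that 4 libraries against 4 allow. The adjusted p could then pass only if a further ratio came near that p, so not passing there says little. Signs that turned were all of values not called: Ticam1 (-0.045 to 0.090 with single libraries left out, below 0 without untreated 5 or LPS 6), Irak1 (-0.0029 with upper-quartile scaling; -0.013 to 0.028 with single libraries left out, below 0 without LPS 8), Irak2 (-0.11 to 0.056, above 0 without untreated 1) and Tollip (-0.027 with quality weights; -0.067 to 0.098 with single libraries left out, below 0 without untreated 5 or LPS 6; -0.0054 without both untreated 1 and LPS 6). The cause was not tested. Scaling moved the median over all genes by little, to -0.02 at most with upper-quartile factors. Irak3 had 32 to 110 and Tirap 82 to 114 counts per library, and their intervals include changes as large as that of Myd88.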
